A study of Rattus norvegicus with 16 samples.

Results

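The genes described here encode the nuclear subunits of the mitochondrial respiratory chain and of ATP synthase, measured in frontal cortex taken from male rats of the Sprague-Dawley strain. They were taken by name: symbols of the Nduf, Sdh, Uqcr, Cox and Atp5 families, with Cyc1 and Cycs, and for a symbol with several loci the locus with the highest mean. This gave 78 of the 17001 gene symbols in the table, namely 34 of complex I, 4 of complex II, 8 of complex III, cytochrome c, 14 of complex IV and 17 of ATP synthase. Of these, 75 reached a mean of at least 1 FPKM, a level scaled to transcript length and library size, over all libraries and were tested. The other 3, Atp5f1, Cox8c and the pseudogene Cox6c-ps1, are given by their values alone. Each group held 4 libraries. HF_5AzaD rats ate a high fat diet for 7 weeks from an age of 11 weeks and had injections into the abdomen over 10 days: 5-AzaD in PBS, the compound 5-aza-2′-deoxycytidine, which blocks DNA methyltransferases. HF_PBS rats ate the same diet and received PBS alone for 10 days. HF rats had the high fat diet and chow rats a chow diet for the same 7 weeks, both without injection. No chow-fed group was injected, so HF_PBS and HF_5AzaD differ from chow in diet and injection together. Nothing in the labels ties each library to an animal of its own, so the p-values cover only the spread among these samples, and that spread may be technical.

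Complexes I and II feed electrons from NADH and succinate into the chain, complex III passes them to cytochrome c, and complex IV hands them to oxygen. The protons pumped on the way drive ATP synthase, whose Fo ring in the membrane turns the central stalk within the catalytic F1 head. Except in complex II, which has 4 subunits, a few large core subunits carry the catalytic sites and many small accessory subunits surround them. Neurons depend on this pathway for most of their ATP.

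Promoters are shown for 4 members, because the data set them apart: Ndufa11 and Atp5i were higher in both injected groups than in HF, whereas Sdha was lower in both injected groups than in HF and Ndufs1 was lower in both than in chow. Each is the 250 bases before the gene's start in RefSeq on build GRCr8, a later rat build than the rn5 of the deposited values, so these positions belong to GRCr8 alone. Ndufa11 is at chr9:1637364-1637613 on the plus strand and Atp5i, named Atp5me in RefSeq, at chr14:1464610-1464859 on the plus strand. Ndufs1 is at chr9:72073606-72073855 on the minus strand and Sdha at chr1:30764303-30764552 on the plus strand. Sequences run 5′ to 3′, and capitals mark the motifs searched for on both strands: TGCGCA and CATGCGC (overlapping parts of the NRF1 site), CCGGAAG (an ETS site, bound by GABPA among others) and CCATCTT (a YY1 site).
Ndufa11: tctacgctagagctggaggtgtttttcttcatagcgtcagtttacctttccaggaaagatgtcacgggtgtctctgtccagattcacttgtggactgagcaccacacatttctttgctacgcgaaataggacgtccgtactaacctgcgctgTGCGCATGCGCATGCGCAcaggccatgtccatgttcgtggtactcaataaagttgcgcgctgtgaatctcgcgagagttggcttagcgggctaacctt
Atp5i: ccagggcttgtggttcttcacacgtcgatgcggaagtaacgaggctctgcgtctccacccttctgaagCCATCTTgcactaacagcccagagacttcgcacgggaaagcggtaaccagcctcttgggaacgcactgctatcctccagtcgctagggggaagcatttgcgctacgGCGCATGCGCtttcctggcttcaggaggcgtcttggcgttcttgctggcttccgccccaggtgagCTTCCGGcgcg
Ndufs1: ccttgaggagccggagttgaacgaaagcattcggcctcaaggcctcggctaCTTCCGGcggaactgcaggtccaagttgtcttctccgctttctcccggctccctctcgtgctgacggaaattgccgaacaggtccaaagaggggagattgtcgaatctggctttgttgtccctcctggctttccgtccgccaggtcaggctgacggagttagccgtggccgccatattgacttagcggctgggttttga
Sdha: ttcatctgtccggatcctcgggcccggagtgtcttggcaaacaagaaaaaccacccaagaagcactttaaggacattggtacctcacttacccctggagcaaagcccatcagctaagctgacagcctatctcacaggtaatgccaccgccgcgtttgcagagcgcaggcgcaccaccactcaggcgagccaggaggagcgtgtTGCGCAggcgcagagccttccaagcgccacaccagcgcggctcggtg
NRF1, GABPA and YY1 are transcription factors known to bind promoters of respiratory genes. Ndufa11 holds a run of overlapping NRF1 letters and Atp5i holds NRF1, ETS and YY1 letters. Ndufs1 holds an ETS match and Sdha a single TGCGCA. RefSeq promoters were matched for 67 of the 78 members. TGCGCA stood in 28.4% of those 67 windows and in 6.57% of the 27457 windows of all genes. CATGCGC stood in 19.4% of the members' windows and in 3.45% of all, CCGGAAG in 26.9% and 7.74%, and CCATCTT in 4.48% and 4.63%. Median GC content was 56.0% in the members' windows and 52.0% in all. Among the members higher in HF_PBS than in HF, 10 of 30 held TGCGCA, 7 CATGCGC, 9 CCGGAAG and 2 CCATCTT, against 6, 5, 9 and 1 of 34 members not past that test. These matches describe letters in a window and not binding.

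Most members were among the abundant transcripts of the cortex. A mean of at least 100 FPKM was reached by 51 members, and 67 of the 75 tested were among the 3706 tested loci of highest level, which starts at 24.6 FPKM. FPKM is scaled to transcript length, but the handling of reads shared between copies is not stated. The order of levels is therefore a description only. The highest means over 16 libraries were those of Cox6a1 (967 FPKM), Cox8a (851 FPKM), Uqcr11 (847 FPKM), Atp5i (737 FPKM) and Atp5b (714 FPKM). Neighbours in that order had overlapping ranges over the libraries. The summed level of the 75 tested members was 16095 ± 2471 FPKM in HF_5AzaD, 16444 ± 2781 FPKM in HF_PBS, 12592 ± 1102 FPKM in HF and 13796 ± 1306 FPKM in chow (SD, n = 4 each). By library it was highest in HF_PBS 4 (19601 FPKM), HF_5AzaD 3 (18694 FPKM), HF_PBS 1 (17709 FPKM) and HF_5AzaD 7 (17415 FPKM). It was lowest in HF 6 (11482 FPKM), HF 8 (11809 FPKM) and chow 4 (12002 FPKM). The injected groups thus each held high and low libraries, and HF_PBS 2 (13268 FPKM) and HF_5AzaD 5 (13099.7 FPKM) lay within the HF range.

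**Figure D1:**
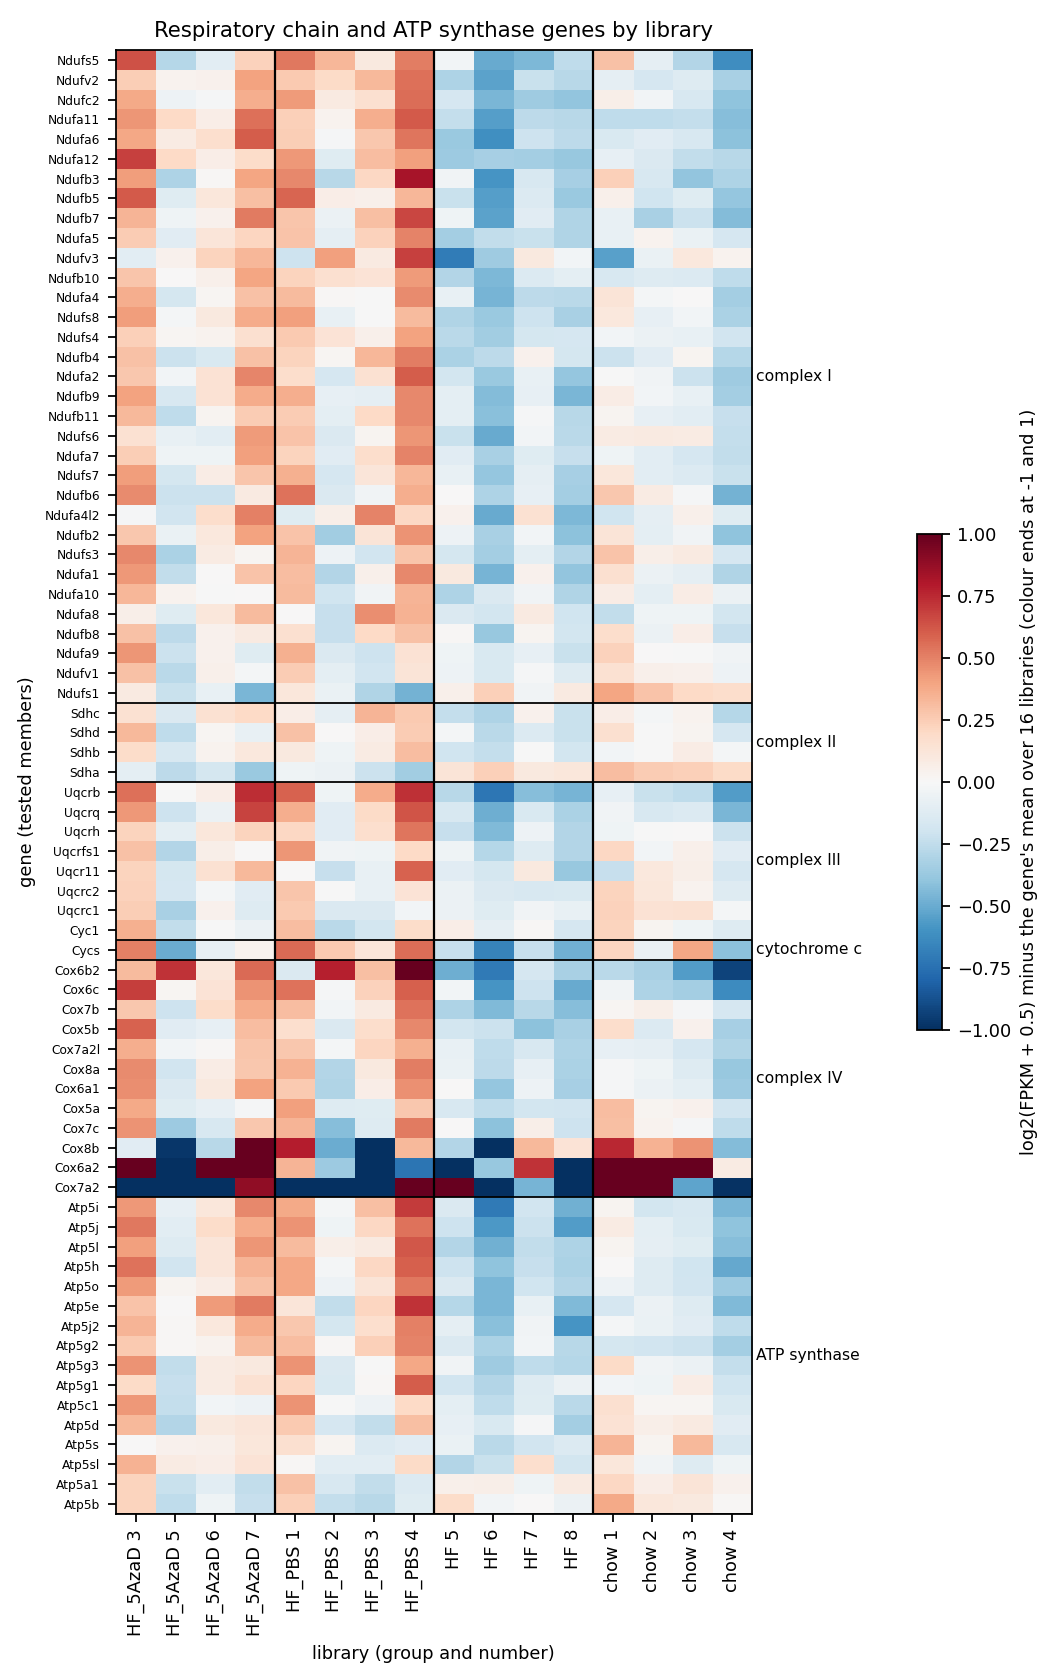
Each row is a tested member (1 is left out) and each column a library, grouped by HF_5AzaD, HF_PBS, HF and chow; colour gives log2(FPKM + 0.5) less the member's mean over the 16 libraries. Most rows of a column share a colour, with HF_PBS 4 and HF_5AzaD 3 high and HF 6, HF 8 and chow 4 low. Sdha runs the other way in these libraries. So does Ndufs1, except in HF_5AzaD 3, where it had 63.8 FPKM beside its mean of 60.7 FPKM.

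Members moved together from library to library. Over the 16 libraries the median correlation of the 2775 pairs of tested members was 0.72 (Pearson, log2 scale), and 65 of 75 members had a median correlation above 0.5 with the others. The pairs share libraries and their depth, and the group differences given below were not removed, so this is a description. Correlations among all loci or within other lists were not computed, so co-movement is not shown to be particular to the members. Atp5h, a subunit of the peripheral stalk, had the highest median, 0.87. Sdha and Ndufs1 had negative medians, -0.57 and -0.46, and those of Atp5a1 and Atp5b were -0.02 and 0.09.

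Several features of the libraries touch these comparisons. Relative depth was taken from the steps between the lowest values, as a percentage of that of chow 2. It was 34.6% to 44.4% in HF_5AzaD, 32.8% to 42.6% in HF_PBS and 30.1% to 36.6% in HF. In the other chow libraries it was 38.7% to 63.7%. The absolute depth is unknown. The 10 neuron markers were all above 0 in every group, with sums of 2933 to 5493 FPKM in HF_5AzaD, 2046 to 5109 FPKM in HF_PBS, 2956 to 4323 FPKM in HF and 4540 to 5404 FPKM in chow. Markers of striatum (7 of 8 listed in the table) summed to 664 to 924 FPKM in HF_PBS 2, 3 and 4 and to 1179 FPKM in HF 8, against 188 to 371 FPKM in the other 12 libraries. Oligodendrocyte markers (8 of 8) summed to 2279 to 7056 FPKM in HF_5AzaD, 3335 to 13445 FPKM in HF_PBS, 3128 to 5075 FPKM in HF and 3527 to 5466 FPKM in chow. Muscle markers (7 of 7, at 5 loci) summed to 399 FPKM in HF_5AzaD 7 and to 9.55 to 15.7 FPKM in all others. Their part in the results below was not tested. In whole tissue, fewer cells of a type and less RNA per cell cannot be told apart.

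Injection of PBS was first set against the diet alone. In HF_PBS against HF, 33 of 75 members were higher and 1, Sdha, was lower (limma, adjusted p under 0.05 over 14824 loci). Over all tested loci, 10.7% were called higher and 13.2% lower. The members' log2 differences had a median of 0.40 with 69 of 75 above 0, where the median of all loci was 0.01. All 4 HF_PBS libraries lay above all 4 HF libraries for 31 members (9.28% of all loci) and below them for 1 (11.9% of all loci). Among the 3706 loci of highest level, 31 of 67 members and 16.7% of loci were higher. By complex, 17 of 34 members of complex I, 3 of 8 of complex III, cytochrome c, 4 of 12 of complex IV and 8 of 16 of ATP synthase were higher, and none of the 4 of complex II. The median log2 difference was 0.44 in complex I, 0.29 in complex II, 0.28 in complex III, 0.33 in complex IV and 0.43 in ATP synthase.

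The count of 34 called members fell to 13 without HF_PBS 4 and to 12 without HF 6, while the share of all loci called higher fell to 4.32% and 4.34%. A fit of these 2 groups alone called 16 members and 3.78% of all loci higher, and leaving out the 5 libraries with raised striatum or muscle markers, which leaves only HF_PBS 1 in its group, called 0 members and, of all 14824 loci, 0 higher and 2 lower, with a median log2 difference of the members of 0.47.

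Injection of 5-AzaD was set against the diet alone in the same way, with the same HF libraries. In HF_5AzaD against HF, 22 of 75 members were higher and 1, Sdha, was lower (limma, adjusted p under 0.05), beside 6.61% and 7.64% of all tested loci. The members' log2 differences had a median of 0.35 with 70 of 75 above 0. All HF_5AzaD libraries lay above all HF libraries for 30 members (8.97% of all loci) and below them for 1 (8.78% of all loci). Among the 3706 loci of highest level, 20 of 67 members and 9.85% of loci were higher. Higher were 10 of 34 members of complex I, 1 of 8 of complex III, 4 of 12 of complex IV and 7 of 16 of ATP synthase.

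The count of 23 called members fell to 6 without HF_5AzaD 3, to 4 without HF_5AzaD 7, to 3 without HF 6 and to 9 without HF 8, while the share of all loci called higher fell to 3.45%, 1.07%, 1.01% and 3.58% in the same fits. It was 15 with no filter on low values (3.12% of all loci higher), 0 in a fit of these 2 groups alone (0.0675%) and 0 without the 5 libraries with raised markers (0.351%), where the members' median log2 difference was 0.28.

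Against chow fewer members passed the test. In HF_PBS against chow, 17 of 75 members were higher and 2, Sdha and Ndufs1, were lower (limma, adjusted p under 0.05), beside 12.4% and 15.7% of all loci, and the members' median log2 difference was 0.25. In HF_5AzaD against chow, 9 were higher and 2, Sdha and Ndufs1, lower, beside 7.18% and 9.11% of all loci, with a median of 0.20. Among the 3706 loci of highest level, 15 of 67 members and 16.2% of loci were higher in HF_PBS than in chow. For HF_5AzaD against chow these were 7 of 67 members and 8.90% of loci. Both comparisons share the chow libraries. All HF_PBS libraries lay above all chow libraries for 13 members (14.2% of all loci) and below them for 2 (19.1%), and all HF_5AzaD libraries above chow for 15 (12.3%) and below for 2 (14.8%). The count for HF_PBS against chow was 5 without HF_PBS 4, 33 without HF_PBS 2, 7 without chow 4 and 0 without the 5 libraries with raised markers, where 4.84%, 14.6%, 6.95% and 0% of all loci were higher. That for HF_5AzaD against chow was 5 without HF_5AzaD 3, 1 without HF_5AzaD 7, 5, 3, 2 and 2 without chow 1, 2, 3 and 4 in turn, 7 with no filter on low values and 3 without the 5 libraries. The share of all loci called higher was 6.17%, 1.21%, 3.72%, 2.47%, 1.94%, 2.16%, 3.55% and 1.83% in these fits, in the same order.

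Markers of cell types also passed the test against chow. In HF_PBS against chow, 3 of 10 neuron markers were lower, and 3 of 7 tested astrocyte markers, 3 of 9 microglia markers, 1 of 8 oligodendrocyte markers and 1 of 7 striatum markers were higher (limma, adjusted p under 0.05). Of all loci, 15.7% were lower and 12.4% higher there, and the oligodendrocyte and striatum counts were near the latter share. In HF_5AzaD against chow, 3 of 9 microglia markers and 1 of 3 tested blood markers were higher, beside 7.18% of all loci. In that comparison 0 of 10 neuron and 0 of 7 astrocyte markers passed. Blood markers (5 of 6 in the table) summed to 435 to 785 FPKM in HF_5AzaD and 150 to 442 FPKM in HF_PBS. Their sums were 253 to 448 FPKM in HF and 200 to 425 FPKM in chow. In HF_PBS against HF, 1 of 7 astrocyte and 1 of 8 oligodendrocyte markers were higher, near the 10.7% of all loci. Astrocyte markers summed to 3091 to 3296 FPKM in HF_5AzaD, 2868 to 4089 FPKM in HF_PBS, 2267 to 3813 FPKM in HF and 2513 to 3167 FPKM in chow, and microglia markers to 172 to 310.3 FPKM in HF_5AzaD, 148 to 340.4 FPKM in HF_PBS, 167 to 221 FPKM in HF and 148 to 159 FPKM in chow. Their part in the members' differences was not tested.

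**Figure D2:**
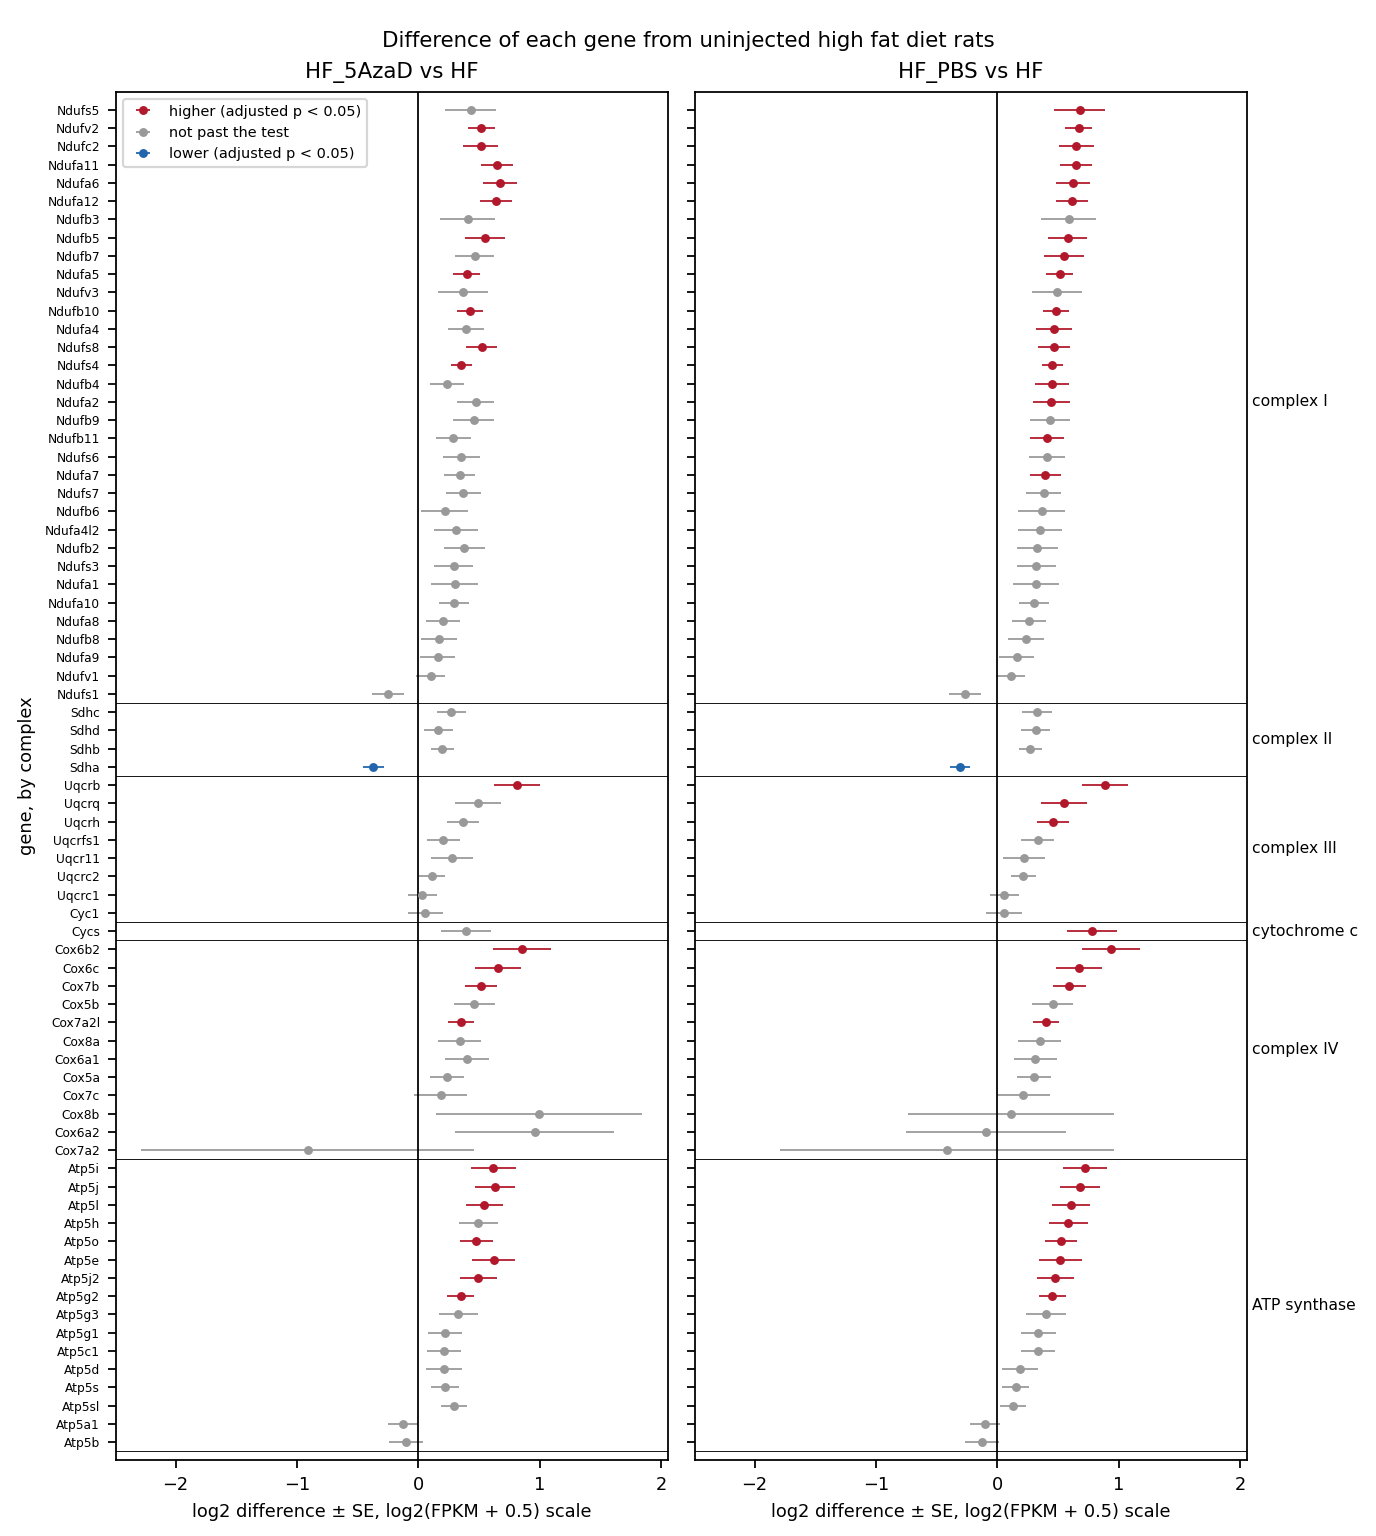
Points give the log2 difference of the tested members (1 is left out) and bars its standard error, for HF_5AzaD against HF (left) and HF_PBS against HF (right), by complex; red marks higher and blue lower at an adjusted p under 0.05. Of 75 members 22 are red on the left and 33 on the right, and Sdha is the blue point in both panels.

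**Figure D3:**
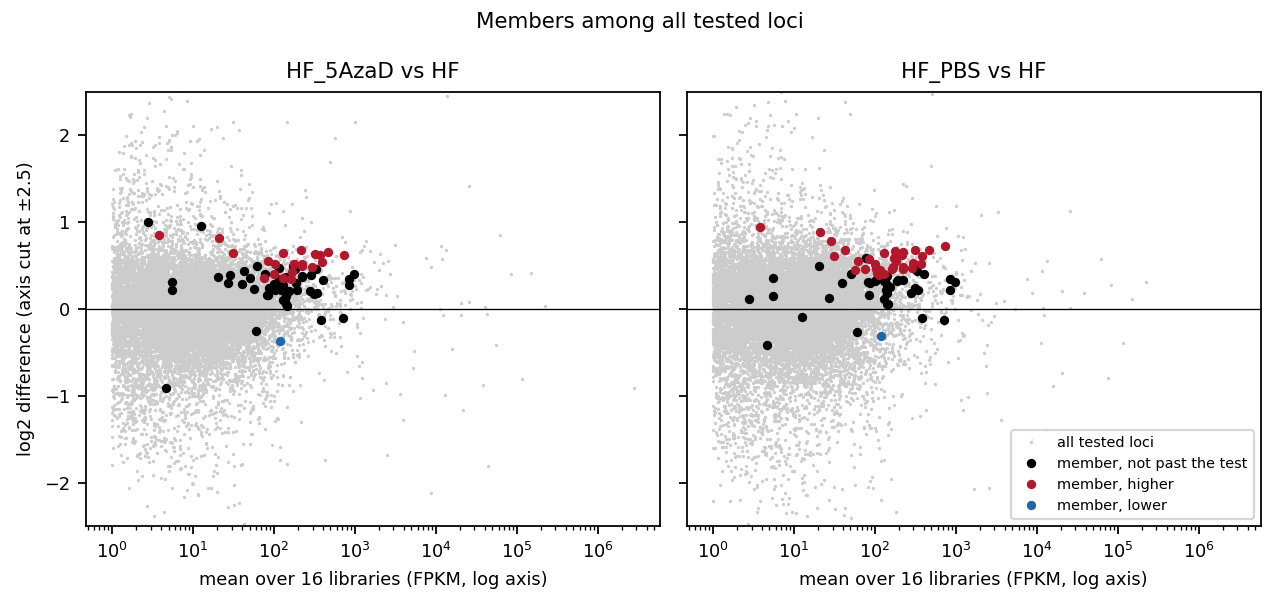
Log2 difference (vertical axis, ends at ±2.5) against mean FPKM over 16 libraries (log axis) for all 14824 tested loci (grey) and the members (black, red where higher, blue where lower), for HF_5AzaD against HF (left) and HF_PBS against HF (right). Members lie to the right, and 67 of 75 are among the 3706 loci of highest level, where 16.7% of loci were higher in HF_PBS than in HF.

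Complex I oxidises NADH with a chain of core subunits that hold its flavin and iron-sulfur clusters. Of its 7 core members, 2 were higher in HF_PBS than in HF, Ndufv2 and Ndufs8. Of its 27 accessory members 15 were, with none lower in either class. Over all tested loci 10.7% were higher and 13.2% lower. The median log2 difference was 0.32 for core and 0.45 for accessory members. Neither the difference between these classes nor the part of transcript or protein length was tested. Ndufv2, the small iron-sulfur partner of the flavin subunit, had 206, 178, 179 and 229.9 FPKM in HF_5AzaD and 209, 198, 218 and 254 FPKM in HF_PBS, against 139.7, 119.6, 149 and 144 FPKM in HF and 164, 155, 159 and 139 FPKM in chow. Every injected library was above every uninjected library. The log2 difference from HF was 0.67 ± 0.11 (SE) for HF_PBS (limma, adjusted p = 0.0027) and 0.52 ± 0.11 for HF_5AzaD (limma, adjusted p = 0.013), which became 0.051 without HF 6. From chow it was 0.51 for HF_PBS (limma, adjusted p = 0.0061) and 0.36 for HF_5AzaD (limma, adjusted p = 0.041), the last lost without any of 6 libraries in turn.

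Ndufa11, an accessory subunit of the membrane arm, had 168, 143, 130.4 and 182 FPKM in HF_5AzaD and 147, 127, 159.8 and 190.1 FPKM in HF_PBS, against 105, 84.5, 104 and 102 FPKM in HF and 104, 104, 105 and 92.2 FPKM in chow. The injected and uninjected libraries did not overlap. Its log2 difference from HF was 0.65 ± 0.13 (SE) for both HF_PBS (limma, adjusted p = 0.0049) and HF_5AzaD (limma, adjusted p = 0.011), and from chow 0.61 for both (limma, adjusted p = 0.0061 and 0.013). These calls held without each library in turn, except that HF_5AzaD against chow reached an adjusted p of 0.052 without HF_5AzaD 7. Ndufs4, which completes the NADH-oxidising arm, averaged 80.6 ± 5.86 FPKM in HF_5AzaD and 86.5 ± 9.27 FPKM in HF_PBS, against 62.9 ± 3.75 FPKM in HF and 69.9 ± 3.52 FPKM in chow (SD, n = 4 each). It was higher in HF_PBS than in HF by 0.45 on the log2 scale (limma, adjusted p = 0.0042), whichever library was left out, and in HF_5AzaD by 0.35 (limma, adjusted p = 0.021), a call lost without HF_5AzaD 3, HF_5AzaD 7 or HF 6.

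The largest core subunit ran the other way. Ndufs1, which carries iron-sulfur clusters next to the flavin site, had 63.8, 51.2, 56.6 and 43.4 FPKM in HF_5AzaD and 64.7, 57.0, 48.4 and 43.0 FPKM in HF_PBS, against 62.1, 70.7, 58.2 and 63.6 FPKM in HF and 78.9, 73.0, 68.5 and 67.5 FPKM in chow. The injected libraries were all below chow, and overlapped HF. The log2 difference from chow was -0.45 ± 0.13 (SE) for HF_PBS (limma, adjusted p = 0.023) and -0.43 ± 0.13 for HF_5AzaD (limma, adjusted p = 0.041). The first call was lost without HF_PBS 3, HF_PBS 4, chow 1 or chow 2 and the second without HF_5AzaD 5, HF_5AzaD 7 or any chow library, and with no filter on low values or libraries scaled to the same median. Without the 5 libraries with raised markers the difference of HF_PBS from chow was -0.15. Against HF the differences were -0.27 for HF_PBS and -0.25 for HF_5AzaD (limma, adjusted p = 0.15 and 0.20). Ndufv1, the flavin subunit, averaged 129.9 ± 20.9 FPKM in HF_5AzaD, 130.3 ± 18.4 FPKM in HF_PBS, 120.0 ± 5.66 FPKM in HF and 132 ± 7.57 FPKM in chow (SD, n = 4 each). It did not pass the test in any comparison, and the groups overlapped in each.

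Ndufb4, a membrane-arm subunit, was higher in HF_PBS than in HF by 0.45 on the log2 scale (limma, adjusted p = 0.031) although the groups overlapped, a call lost without any of 5 libraries in turn. Ndufb9 and Ndufb8, the most abundant members of complex I, averaged 376 ± 76.9 and 335 ± 50.1 FPKM in HF_PBS, against 275 ± 39.3 and 283 ± 36.2 FPKM in HF (SD, n = 4 each), and did not pass (limma, adjusted p = 0.070 and 0.25). Ndufa4 was first assigned to complex I and is now placed in complex IV. It and its paralog Ndufa4l2 are counted by name among the 34 members and 27 accessory members of complex I throughout, and not among those of complex IV. It averaged 326 ± 54.2 FPKM in HF_PBS, against 235 ± 26.0 FPKM in HF (limma, log2 difference 0.47, adjusted p = 0.038, lost without any of 5 libraries in turn). Its paralog Ndufa4l2, known to replace it under low oxygen, averaged 6.19 ± 1.24 FPKM in HF_PBS, against 4.79 ± 1.22 FPKM in HF (limma, adjusted p = 0.17).

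**Figure D4:**
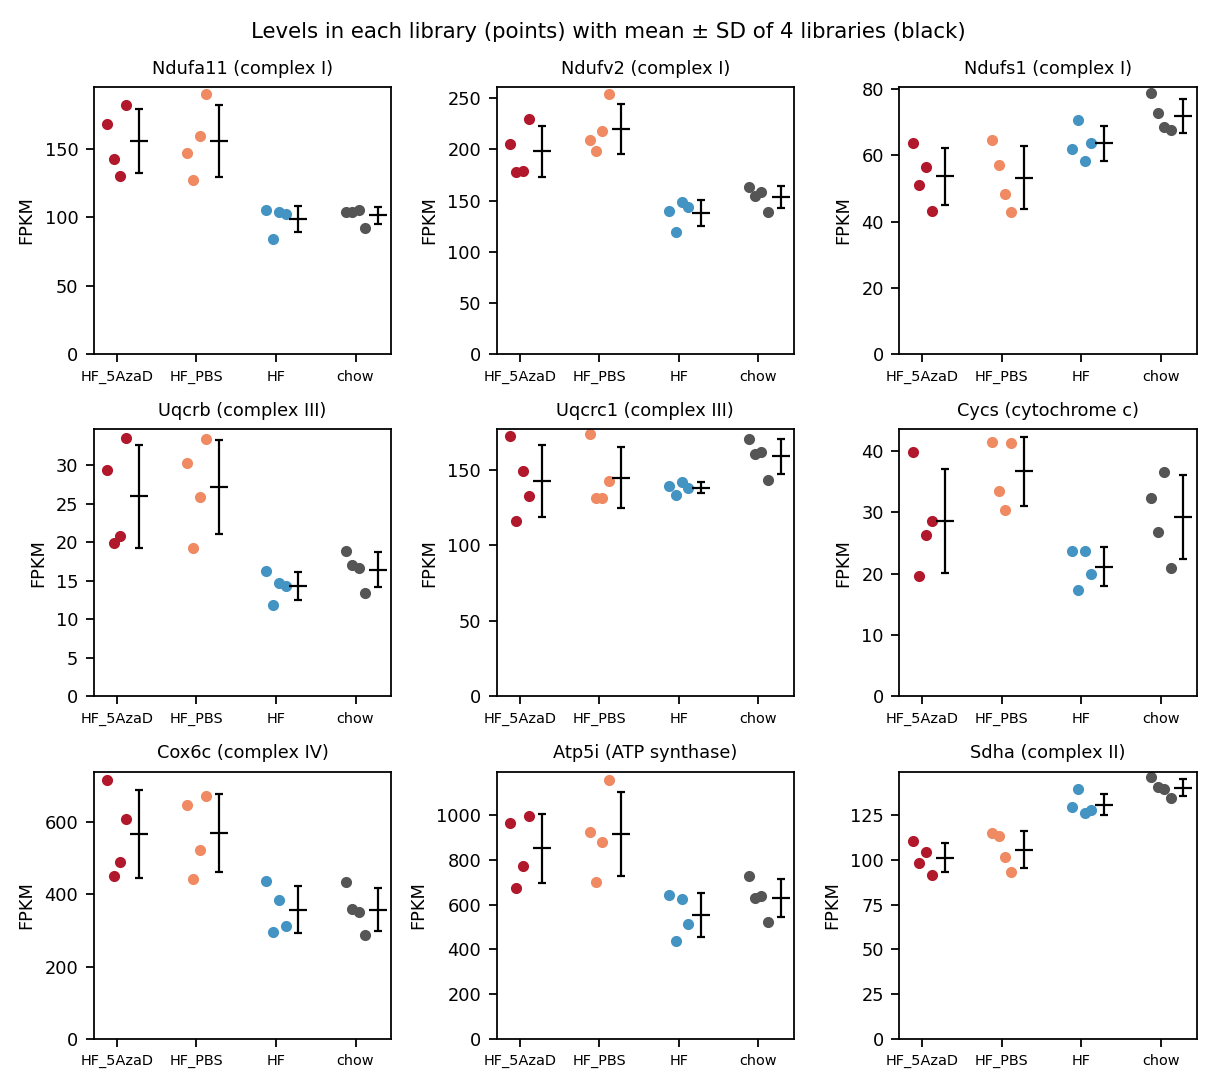
FPKM of 9 members in each library (coloured points) with the mean ± SD of 4 libraries (black), for HF_5AzaD, HF_PBS, HF and chow from left to right. Ndufv2, Ndufa11, Uqcrb and Atp5i lie higher in both injected groups than in HF, Sdha lies lower, and Uqcrc1 overlaps.

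Complex II is both a citric acid cycle enzyme and an entry to the chain, and it was the complex with no higher member. It has only 4 members, and 10.7% of all tested loci were higher in HF_PBS than in HF. Its flavin subunit Sdha had 111, 98.3, 104 and 91.4 FPKM in HF_5AzaD and 115, 113, 102 and 93.0 FPKM in HF_PBS, against 129, 139.6, 126 and 128 FPKM in HF and 146, 141, 139 and 135 FPKM in chow. All 8 injected libraries lay below all 8 uninjected ones. The log2 difference from HF was -0.31 ± 0.08 (SE) for HF_PBS (limma, adjusted p = 0.019) and -0.37 ± 0.08 for HF_5AzaD (limma, adjusted p = 0.017). The first call was lost without HF_PBS 4 or HF 6 and the second without HF_5AzaD 7 or HF 6. From chow it was -0.41 for HF_PBS (limma, adjusted p = 0.0052) and -0.47 for HF_5AzaD (limma, adjusted p = 0.0086), and these held without each library in turn. Without the 5 libraries with raised markers the differences of HF_PBS were -0.20 from HF and -0.29 from chow.

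The other 3 subunits of complex II pointed upwards without passing the test. Sdhb, the iron-sulfur subunit, averaged 144 ± 14.3 FPKM in HF_5AzaD and 152 ± 15.8 FPKM in HF_PBS, against 126 ± 9.21 FPKM in HF and 141 ± 4.87 FPKM in chow (SD, n = 4 each; HF_PBS against HF, limma, adjusted p = 0.050). Sdhc and Sdhd anchor the enzyme in the membrane. Sdhc averaged 142 ± 19.0 FPKM in HF_PBS, against 113 ± 12.8 FPKM in HF (limma, adjusted p = 0.063). Sdhd averaged 92.3 ± 9.09 FPKM in HF_PBS, against 74.0 ± 5.72 FPKM in HF (limma, adjusted p = 0.066). Within the enzyme, Sdha and its partner subunits thus had differences of opposite sign in HF_PBS against HF, 0.27 to 0.33 on the log2 scale for the partners.

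Complex III passes electrons from quinol to cytochrome c. Of its small subunits, 3 of 4 were higher in HF_PBS than in HF, and of its core proteins and redox subunits 0 of 4 were. Over all tested loci 10.7% were higher. Median log2 differences of these classes were 0.50 and 0.14. Neither the difference between the classes nor the part of transcript or protein length was tested. Uqcrb, a small subunit at the quinone site, had 29.4, 19.9, 20.9 and 33.6 FPKM in HF_5AzaD and 30.3, 19.3, 25.9 and 33.4 FPKM in HF_PBS, against 16.3, 11.9, 14.7 and 14.3 FPKM in HF and 18.8, 17.0, 16.7 and 13.4 FPKM in chow. Every injected library was above every uninjected library, with HF_PBS 2 and HF_5AzaD 5 nearest to chow 1. Its log2 difference from HF was 0.88 ± 0.19 (SE) for HF_PBS (limma, adjusted p = 0.0063), whichever library was left out, and 0.81 ± 0.19 for HF_5AzaD (limma, adjusted p = 0.017), lost without HF_5AzaD 7 or HF 6. From chow it was 0.69 for HF_PBS (limma, adjusted p = 0.017, lost without HF_PBS 4 or chow 4) and 0.62 for HF_5AzaD (limma, adjusted p = 0.041, lost without any of 6 libraries in turn).

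Uqcrh, the hinge protein at the cytochrome c site, averaged 258 ± 48.1 FPKM in HF_PBS, against 187 ± 21.4 FPKM in HF (limma, log2 difference 0.46, adjusted p = 0.023, lost without HF_PBS 4 or HF 6). Uqcrq averaged 74.5 ± 15.9 FPKM in HF_PBS, against 50.2 ± 5.44 FPKM in HF (SD, n = 4 each), and lay at the threshold (limma, adjusted p = 0.0499), with the call lost with a pseudocount of 0.1 and in 7 of the 8 fits that left out a library of either group. Uqcr11, the most abundant member of the complex, averaged 900.3 ± 244 FPKM in HF_PBS, against 760.0 ± 104 FPKM in HF (limma, adjusted p = 0.38). The core protein Uqcrc1 averaged 143 ± 24.0 FPKM in HF_5AzaD, 145 ± 20.2 FPKM in HF_PBS, 138 ± 3.61 FPKM in HF and 159 ± 11.4 FPKM in chow. Its partner Uqcrc2 averaged 145 ± 15.8 FPKM in HF_PBS, against 124 ± 4.27 FPKM in HF. Cyc1, the cytochrome c1 of the complex, averaged 142 ± 27.5 FPKM in HF_PBS, against 135 ± 9.85 FPKM in HF. None of these 3 passed in any comparison.

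Cycs, the soluble carrier cytochrome c and a trigger of apoptosis when released, had 39.9, 19.6, 26.4 and 28.5 FPKM in HF_5AzaD and 41.5, 33.5, 30.4 and 41.3 FPKM in HF_PBS, against 23.7, 17.3, 23.7 and 19.9 FPKM in HF and 32.4, 26.8, 36.6 and 20.9 FPKM in chow. All HF_PBS libraries lay above HF, and HF_5AzaD and chow overlapped with both. The log2 difference of HF_PBS from HF was 0.78 ± 0.20 (SE; limma, adjusted p = 0.016), lost without HF_PBS 4 or HF 6, and that of HF_5AzaD from HF was 0.39 (limma, adjusted p = 0.20). HF_5AzaD against HF_PBS was itself -0.39 with a 95% interval of -0.82 to 0.05 (limma, adjusted p = 0.73).

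Complex IV reduces oxygen at a core encoded in mitochondrial DNA, which is not analysed here, so all its members are accessory subunits. Of 12 tested, 4 were higher in HF_PBS than in HF, beside 10.7% of all tested loci. Cox6c had 718, 450.4, 489 and 609.6 FPKM in HF_5AzaD and 648, 442, 522 and 673 FPKM in HF_PBS, against 436, 296, 386 and 314 FPKM in HF and 434, 359, 352 and 288 FPKM in chow. The injected libraries were all above the uninjected ones, by a narrow margin for HF_PBS 2 over HF 5. Its log2 difference from HF was 0.67 ± 0.19 (SE) for HF_PBS (limma, adjusted p = 0.021, lost without HF_PBS 4, HF 6 or HF 8) and 0.66 ± 0.19 for HF_5AzaD (limma, adjusted p = 0.034, lost without any of 4 libraries in turn).

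Cox7b averaged 194 ± 32.0 FPKM in HF_5AzaD and 204 ± 36.1 FPKM in HF_PBS, against 134 ± 7.66 FPKM in HF and 169 ± 11.3 FPKM in chow (SD, n = 4 each). It was higher in HF_PBS than in HF by 0.59 ± 0.13 (limma, adjusted p = 0.0082), whichever library was left out, and did not pass against chow (0.25, limma, adjusted p = 0.16). Cox7a2l, known to join complexes III and IV into supercomplexes, averaged 145 ± 19.5 FPKM in HF_5AzaD and 150.0 ± 16.3 FPKM in HF_PBS, against 113 ± 8.09 FPKM in HF and 116 ± 8.08 FPKM in chow. Its log2 difference from HF was 0.40 for HF_PBS (limma, adjusted p = 0.017, lost without HF_PBS 4 or HF 6) and 0.35 for HF_5AzaD (limma, adjusted p = 0.043, lost without any of 5 libraries in turn).

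Cox6b2, known as the testis isoform of subunit 6b, was scarce. It had 4.51, 6.16, 3.87 and 5.46 FPKM in HF_5AzaD and 3.15, 6.39, 4.47 and 8.26 FPKM in HF_PBS, against 2.37, 1.97, 3.08 and 2.72 FPKM in HF and 2.85, 2.71, 2.24 and 1.62 FPKM in chow. The lowest injected library, HF_PBS 1, was just above HF 7. Its log2 difference from HF was 0.94 ± 0.24 (SE) for HF_PBS (limma, adjusted p = 0.014, lost without HF_PBS 4 or HF 6) and 0.85 ± 0.24 for HF_5AzaD (limma, adjusted p = 0.032, lost without any of 6 libraries in turn). From chow it was 1.03 for HF_PBS (limma, adjusted p = 0.0083), whichever library was left out. Without the 5 libraries with raised markers the differences of HF_PBS were 0.31 from HF and 0.38 from chow. The broadly used isoforms Cox6a1 and Cox8a, the most abundant members, averaged 1051 ± 226 and 958 ± 222 FPKM in HF_PBS, against 837 ± 114 and 738 ± 63.8 FPKM in HF (limma, adjusted p = 0.22 and 0.17).

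The muscle isoforms and Cox7a2 varied within groups. Cox8b, the heart and muscle isoform of subunit 8, had 22.3 FPKM in HF_5AzaD 7 and between 0 and 2.99 FPKM in the other 15 libraries. The muscle markers Ckm and Tnnt3 had 83.8 and 78.6 FPKM in that library, and at most 0.385 and 0.573 FPKM elsewhere; their part in the value of Cox8b was not tested. Cox6a2, the muscle isoform of subunit 6a, had 20.5, 2.74, 20.4 and 20.3 FPKM in HF_5AzaD and 12.5, 7.48, 2.01 and 5.68 FPKM in HF_PBS, against 3.96, 7.41, 16.4 and 3.00 FPKM in HF and 25.3, 24.2, 21.5 and 10.4 FPKM in chow. It did not stand out in HF_5AzaD 7, which matched HF_5AzaD 3 and 6. Its log2 difference was -1.64 ± 0.66 (SE) for HF_PBS against chow (limma, adjusted p = 0.072) and -1.55 ± 0.66 for HF against chow (limma, adjusted p = 0.70). Cox7a2 was listed at 20.4 FPKM in HF_PBS 4, 16.3 FPKM in HF 5, 17.6 FPKM in chow 1 and 14.7 FPKM in chow 2, and at 0 to 2.82 FPKM in the other 12 libraries, with no value in between. Cox8c, another testis isoform, was listed at 0 in 13 libraries and at 0.105, 0.119 and 0.141 FPKM in HF_5AzaD 5, HF_5AzaD 7 and HF 6, and Cox6c-ps1 was listed at 0 in all. Cox6b1 and Cox7a1 are not analysed here.

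**Figure D5:**
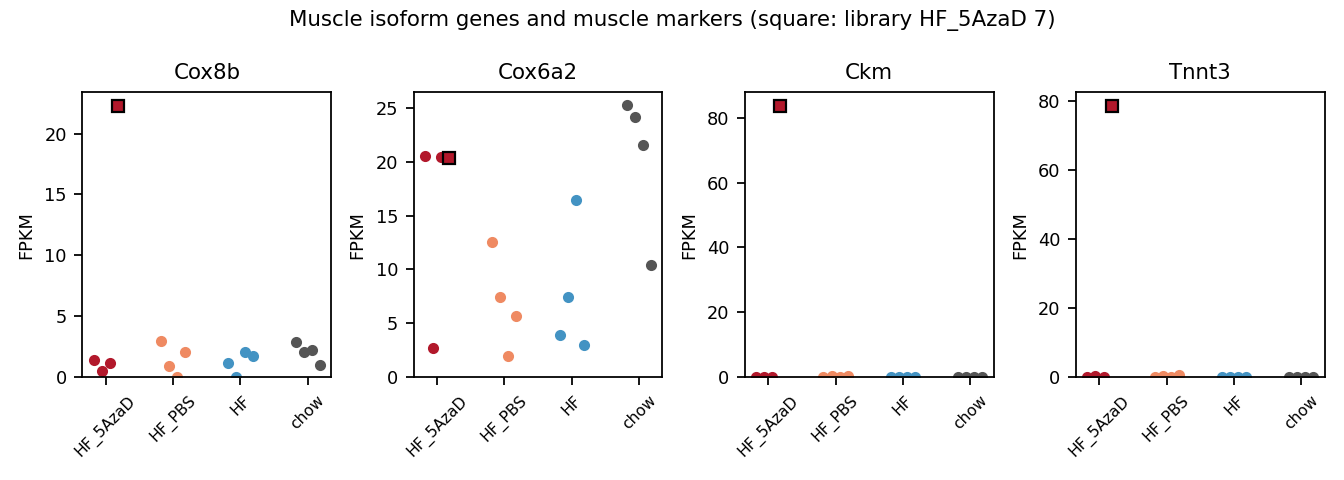
FPKM by library of the muscle isoform genes Cox8b and Cox6a2 and of the muscle markers Ckm and Tnnt3, for HF_5AzaD, HF_PBS, HF and chow from left to right; the square is HF_5AzaD 7. Cox8b, Ckm and Tnnt3 are high in that library at 22.3, 83.8 and 78.6 FPKM, whereas Cox6a2 is not set apart there at 20.3 FPKM.

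ATP synthase is described here by its parts. The difference between the parts was not tested, nor was the role of transcript or protein length. In HF_PBS against HF, 7 of 9 tested members of the Fo part and peripheral stalk were higher, with a median log2 difference of 0.52, against 1 of 5 of the F1 head and central stalk, with a median of 0.18. In HF_5AzaD against HF the counts were 6 of 9 and 1 of 5, with medians of 0.49 and 0.21. Against chow they were 4 of 9 and 0 of 5 for HF_PBS and 1 of 9 and 0 of 5 for HF_5AzaD. Over all tested loci, 10.7%, 6.61%, 12.4% and 7.18% were higher in these comparisons, in the same order. Atp5i, the small subunit e at the dimer interface in the membrane, had 964, 674, 773 and 994 FPKM in HF_5AzaD and 926, 702, 879 and 1158 FPKM in HF_PBS, against 643, 437, 624 and 511 FPKM in HF and 727, 627, 637 and 520.3 FPKM in chow. Both injected groups lay above HF, and HF_5AzaD 5 and HF_PBS 2 fell within the chow range. The log2 difference from HF was 0.72 ± 0.18 (SE) for HF_PBS (limma, adjusted p = 0.013, and 0.053 without HF 6) and 0.62 ± 0.18 for HF_5AzaD (limma, adjusted p = 0.037, lost without any of 4 libraries in turn).

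Atp5j, coupling factor 6 of the peripheral stalk, averaged 369.9 ± 67.7 FPKM in HF_5AzaD and 381 ± 67.7 FPKM in HF_PBS, against 237 ± 33.7 FPKM in HF and 281 ± 38.3 FPKM in chow (SD, n = 4 each). It was higher in HF_PBS than in HF by 0.68 ± 0.17 (limma, adjusted p = 0.011), whichever library was left out. In HF_5AzaD it was higher by 0.63 ± 0.17 (limma, adjusted p = 0.024), lost without any of 4 libraries in turn. The catalytic subunits of the head did not pass in any comparison. Atp5b, the β subunit, averaged 677 ± 107 FPKM in HF_5AzaD, 667 ± 116 FPKM in HF_PBS, 722 ± 56.2 FPKM in HF and 789.8 ± 91.1 FPKM in chow. Atp5a1, the α subunit, averaged 364 ± 57.6 FPKM in HF_5AzaD, 371 ± 67.3 FPKM in HF_PBS, 394 ± 14.8 FPKM in HF and 415 ± 21.6 FPKM in chow. Atp5c1, the γ shaft, averaged 212 ± 34.5 FPKM in HF_PBS, against 167 ± 10.6 FPKM in HF (limma, adjusted p = 0.096).

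Atp5g1, Atp5g2 and Atp5g3 encode the same mature c subunit of the membrane ring. Atp5g2 had 195, 164, 166 and 202 FPKM in HF_5AzaD and 201, 163, 191 and 228 FPKM in HF_PBS, against 146, 129.8, 159 and 134 FPKM in HF and 143, 141, 139.7 and 128 FPKM in chow. Every injected library was above every uninjected one. It passed in HF_PBS against HF (log2 difference 0.45, limma, adjusted p = 0.011) and against chow (0.49, limma, adjusted p = 0.0071), whichever library was left out. It passed in HF_5AzaD against HF (0.35, limma, adjusted p = 0.048) and against chow (0.39, limma, adjusted p = 0.032), lost without any of 5 and of 6 libraries in turn. Atp5g3 averaged 459 ± 90.9 FPKM in HF_PBS, against 343 ± 34.7 FPKM in HF, and Atp5g1 116 ± 27.6 FPKM in HF_PBS, against 90.0 ± 6.20 FPKM in HF (limma, adjusted p = 0.085 and 0.095). Atp5g2 supplied 22.7% to 27.8% of the summed level of these 3 genes in HF_5AzaD, 23.2% to 27.5% in HF_PBS, 23.3% to 27.0% in HF and 20.4% to 23.0% in chow. Atp5f1, subunit b of the peripheral stalk, was listed at 5.14 FPKM in chow 2 and at 0 to 0.404 FPKM in the other 15 libraries. A second locus of Atp5f1 was listed at 0 to 2.34 FPKM, highest in HF_5AzaD 3. The stalk partners of Atp5f1 lay above 100 FPKM. Atp5s and Atp5sl match the names but are not subunits of the enzyme, and neither passed in any comparison.

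The question of diet alone is put by HF against chow, and no member passed. Over all 14824 loci 0% were called higher and 0% lower (limma), and at an unadjusted p under 0.05 these were 3.17% and 3.71%. Of the members 0 were higher and 3 lower at that unadjusted level, Atp5s, Cox6a2 and Cox7b. The log2 differences had a median of -0.15, with 4 of 75 above 0, and 13 of 75 under quantile normalization. Cox7b averaged 134 ± 7.66 FPKM in HF, against 169 ± 11.3 FPKM in chow, a log2 difference of -0.34 ± 0.13 (SE; limma, adjusted p = 0.70). All HF libraries lay below all chow libraries for 5 members (3.97% of all loci) and above them for 0 (2.98%).

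The effect of the inhibitor beyond its vehicle is put by HF_5AzaD against HF_PBS, and no member passed there either. Over all loci 0% were called in either direction (limma), and at an unadjusted p under 0.05 3.64% were higher and 3.78% lower, with 0 members in each direction. The members' log2 differences had a median of -0.05 with 21 of 75 above 0, and the median ran from -0.22 to 0.04 over the alternatives. No member had all libraries of HF_5AzaD above (1.46% of all loci) or below (0.938%) all of HF_PBS. The lowest p were those of Cycs, Cox6a2 and Ndufb4. Ndufb4 averaged 58.8 ± 11.2 FPKM in HF_5AzaD, against 67.9 ± 9.76 FPKM in HF_PBS (log2 difference -0.22, 95% interval -0.51 to 0.08, limma, adjusted p = 0.79). For Ndufa11 the difference was 0.00 with a 95% interval of -0.28 to 0.28, and for Sdha -0.06 with an interval of -0.24 to 0.12. These intervals show the sizes that 4 libraries a group could not tell from 0.

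Genes around the chain were counted in the same fit of HF_PBS against HF, where 10.7% of all loci were higher and 13.2% lower. Of 6 respiratory chain genes outside the name rule, 4 were higher and 0 lower. Ndufab1, the acyl carrier protein bound to complex I, averaged 141 ± 31.7 FPKM in HF_PBS, against 87.4 ± 7.83 FPKM in HF (limma, adjusted p = 0.016). Of assembly factors, 8 of 30 were higher and 1 was lower, and Cox15, needed for the heme of complex IV, averaged 1.26 ± 0.351 FPKM in HF_PBS, against 2.27 ± 0.175 FPKM in HF (limma, adjusted p = 0.0093). Of the proteins that import and shape mitochondria, 12 of 26 were higher and 0 lower. Timm8a1, a small chaperone of the intermembrane space, averaged 22.9 ± 2.79 FPKM in HF_PBS, against 12.8 ± 2.93 FPKM in HF (limma, adjusted p = 0.0028). Of carriers and channels 3 of 10 were higher, among them the outer membrane channel Vdac3 at 183 ± 17.8 FPKM in HF_PBS, against 133 ± 8.53 FPKM in HF (limma, adjusted p = 0.0057). Of antioxidant enzymes 2 of 9 were higher.

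Of 17 genes of the citric acid cycle and pyruvate dehydrogenase, 0 were higher and 2 (11.8%) were lower in HF_PBS than in HF, a share near that of all loci, and 12 of 17 log2 differences were above 0, with a median of 0.14. Ogdh, the first component of the oxoglutarate dehydrogenase complex, averaged 37.5 ± 7.57 FPKM in HF_PBS, against 67.8 ± 10.8 FPKM in HF (limma, log2 difference -0.86, adjusted p = 0.0049). Of 18 regulators of mitochondrial gene expression, 3 were higher and 3 lower (16.7% each way, beside 10.7% and 13.2% of all loci), with a median log2 difference of -0.20. Tfam, which packages mitochondrial DNA, averaged 20.2 ± 2.20 FPKM in HF_PBS, against 15.1 ± 1.32 FPKM in HF (limma, adjusted p = 0.014). Tfb2m, a mitochondrial transcription factor, averaged 13.7 ± 2.68 FPKM in HF_PBS, against 8.92 ± 1.24 FPKM in HF (limma, adjusted p = 0.011). Lower were the coactivator Ppargc1b at 1.68 ± 0.303 FPKM in HF_PBS, against 2.87 ± 0.498 FPKM in HF (limma, adjusted p = 0.0082), and Yy1 at 20.7 ± 2.19 FPKM in HF_PBS, against 29.2 ± 3.00 FPKM in HF (limma, adjusted p = 0.0040).

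Other families of small, abundant subunits were read beside the members. In HF_PBS against HF, 29 of 66 mitochondrial ribosomal proteins, 31 of 63 cytosolic ribosomal proteins and 12 of 39 proteasome subunits were higher, and 0, 0 and 1 were lower. Their median log2 differences were 0.33, 0.53 and 0.25, beside 0.40 for the respiratory members. In HF_5AzaD against HF, 18 of 66, 18 of 63 and 8 of 39 were higher, with medians of 0.33, 0.46 and 0.22, beside 0.35. In HF_PBS against chow, 17 of 66 mitochondrial and 39 of 63 cytosolic ribosomal proteins and 11 of 39 proteasome subunits were higher, with medians of 0.25, 0.59 and 0.19, beside 17 of 75 and 0.25 for the respiratory members. In HF_5AzaD against chow, 9 of 66, 26 of 63 and 4 of 39 were higher, with medians of 0.19, 0.52 and 0.14, beside 9 of 75 and 0.20. The shares of all tested loci called higher were 10.7%, 6.61%, 12.4% and 7.18% in these comparisons, in the order given. No difference between these lists was tested.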

How the data were processed

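Poly-A RNA of 16 frontal cortex libraries was sequenced on an Illumina HiSeq, per the labels' protocols. The deposited table holds FPKM made by the authors per merged locus and library. Bowtie, Bowtie2, TopHat, TopHat2, Cuffdiff, Cufflinks and build rn5 are named, without versions or roles, per the submitters' processing notes. Strand, and the handling of reads shared between copies, are not stated there, and antisense partners and processed pseudogenes could add to a member's value. Ndufa5 shares a merged locus with Iqub. Groups follow the stated treatment: the design text uses HFD for the diet alone, while titles give it to the PBS animals. FPKM was used as deposited, and 0 per-sample columns came from outside the series. Loci with status OK in all libraries and a mean of at least 1 FPKM (14824) were fitted on log2(FPKM + 0.5) with limma 3.58.1 (R 4.3.3), with 1 mean per group, 12 residual degrees of freedom, 6 contrasts and Benjamini-Hochberg adjustment over all these loci. That scale understates changes of low genes. The fit was tested on simulated data. Promoters came from RefSeq, and protein and transcript lengths were not used here. Members, lists and roles were chosen with earlier results of these data known. Named members are, per complex, the 3 with the lowest p in HF_PBS against HF and the 2 with the highest mean, those called against their complex, fixed paralogs and catalytic subunits, the 3 with the lowest p in the 2 comparisons without calls, and members under 1 FPKM. Of related lists the 2 with the lowest p per direction could be named. Some genes that the rule names are not reported here by name, and 1 row is left out of the plots by gene. Members outside the rule (Atp5h, Atp5sl, Ndufs8) were named after their values were seen. Alternatives were pseudocounts, filters, scalings, variance priors, groups fitted, a replicate block, leaving out each library and, added after seeing the data, 5 libraries together and loci of any status. Tables were handled in Python 3.11.15 (pandas 2.3.3).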

Additional observations from a re-analysis of the deposited data

Results flagged for a closer look

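In all, 10 values of named members lay far from the other libraries of their group by Dixon's 95% criterion for 4 libraries, among 165 groups checked, and chance alone gives about 1 in 20. Some belong to low or unevenly listed genes. Atp5f1 was at 5.14 FPKM in chow 2, against at most 0.114 FPKM in the other chow libraries. Cox7a2 was at 2.82 FPKM in HF_5AzaD 7, 20.4 FPKM in HF_PBS 4 and 16.3 FPKM in HF 5, against at most 0.28, 0.197 and 0.80 FPKM in the rest of each group. The muscle isoform Cox8b was at 22.3 FPKM in HF_5AzaD 7, against at most 1.37 FPKM in the other HF_5AzaD libraries, and the muscle isoform Cox6a2 was at 2.74 FPKM in HF_5AzaD 5, against 20.3 to 20.5 FPKM. Among abundant members, Atp5a1 was at 471 FPKM in HF_PBS 1, against 324 to 348 FPKM in HF_PBS 2, 3 and 4, and Sdhc was at 115 FPKM in HF_5AzaD 5, against 142 to 146 FPKM. Ndufa11 was at 84.5 FPKM in HF 6, against 102 to 105 FPKM in the other HF libraries, and at 92.2 FPKM in chow 4, against 104 to 105 FPKM. HF 6 and chow 4 were also the libraries with the lowest summed level of the members in their groups.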

How the results depend on the processing

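The members' median log2 difference kept its sign in 5 of 6 comparisons under every alternative tried. That of HF_5AzaD against HF_PBS ran from -0.22 to 0.04. Members called in HF_PBS against HF numbered 34, and 12 to 48 when a library was left out, 16 in a fit of the 2 groups alone and 0 without the 5 libraries with raised striatum or muscle markers. In HF_5AzaD against HF they numbered 23, and 3 to 31 when a library was left out, 15 with no filter on low values, 0 in a fit of the 2 groups alone, 0 with the replicate block and 0 without the 5 libraries. In HF_PBS against chow they numbered 19, and 5 to 33 when a library was left out, 4 with the replicate block (1 higher, 3 lower) and 0 without the 5 libraries. In HF_5AzaD against chow they numbered 11, and 1 to 14 when a library was left out, 7 with no filter and 3 without the 5 libraries. Calls over all loci also moved: over the alternatives the share of loci called higher ran from 0% to 14.2% in HF_PBS against HF, 0% to 8.56% in HF_5AzaD against HF (0% with the replicate block), 0% to 16.1% in HF_PBS against chow and 1.21% to 9.09% in HF_5AzaD against chow. In HF against chow and HF_5AzaD against HF_PBS the count of called members was 0 under every alternative. Replicate numbers did not pair the libraries: same-numbered deviations correlated at -0.16 to 0.02 for HF_PBS and chow and at -0.11 to 0.06 for HF_5AzaD and HF, and 0 of 4 and 0 of 3 correlated best with their own number. Over the refits of the named calls, 666 stayed past the threshold, 236 did not and 0 changed sign. Fits without a library keep at least 3 per group, except the 5-library set, which leaves 1 HF_PBS library assumed to vary like the others. Why calls changed was not tested, beyond fewer libraries in the fit. Under both scalings the median log2 difference of all loci was at most 0.07. The absolute depth is unknown, so no counting interval is given.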
